A study of Mus musculus with 2 samples.

Results

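*Nppa* and *Nppb*, the genes of atrial and B-type natriuretic peptide, lie side by side on mouse chromosome 4, and open chromatin around them was described in embryonic hearts. The members are the 2 genes, of 21938 protein-coding genes in GENCODE M21, and every ATAC-seq peak from 100 kb before the pair to 100 kb after it. This window, chr4:147885788-148102079 on GRCm38/mm10, held 46 of the 118027 peaks of replicate 1 and 44 of the 114783 peaks of replicate 2, of which 45 and 43 had their summit inside. ATAC-seq finds accessible DNA through the transposase Tn5, which inserts sequencing adapters where chromatin is open. Hearts came from wildtype FVB embryos at E11.5, staged at 49 to 51 somites, and each of the 2 replicates was made from a pair of hearts. The replicates form a single group, so no comparison between conditions or tissues was possible.

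Both peptides are hormones of heart muscle that lower blood pressure and blood volume. They are released when the wall is stretched and act through NPR1, a receptor that makes cyclic GMP. *Nppa* is expressed in the working muscle of the embryonic atria and ventricles and in the adult mainly in the atria, and *Nppb* is induced in strained ventricles. The *Nppa* promoter is a known target of the cardiac factors GATA4, NKX2-5, TBX5 and SRF, and the pair is also controlled from a distance.

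Both genes have 3 exons and are read from the plus strand. *Nppb* spans chr4:147985788-147987205 and *Nppa* spans chr4:148000722-148002079, with 13516 bp between them and 14934 bp from start to start. The sequences at the accessible sites are shown because the description of each peak refers to motifs in them. They are the GRCm38 reference (C57BL/6J), plus strand, and FVB bases were not analysed here. Capitals mark matches on either strand to the CArG box bound by SRF, to the MEF2 site and to the following letters. They are those of GATA factors (written AGATAA), NKX2-5 (TNAAGTG), T-box factors (GGTGTGA), TEAD factors (GGAATG), AP-1 (TGANTCA) and the GC box (GGGCGG). A single form of the E-box (CATCTG) was searched as well, and its other forms are not marked. The first is centred on the *Nppa* summit (chr4:148000243-148000542), followed by the bases just before the *Nppb* start (chr4:147985638-147985787) and a short site in *Nppb* exon 1 (chr4:147985793-147985822). The others are centred on the replicate 1 summits of the highest intergenic regions away from promoters upstream of *Nppb*, at -22.0 kb (chr4:147963748-147963848), -19.8 kb (chr4:147965906-147966006) and -16.2 kb (chr4:147969494-147969594).
*Nppa* summit: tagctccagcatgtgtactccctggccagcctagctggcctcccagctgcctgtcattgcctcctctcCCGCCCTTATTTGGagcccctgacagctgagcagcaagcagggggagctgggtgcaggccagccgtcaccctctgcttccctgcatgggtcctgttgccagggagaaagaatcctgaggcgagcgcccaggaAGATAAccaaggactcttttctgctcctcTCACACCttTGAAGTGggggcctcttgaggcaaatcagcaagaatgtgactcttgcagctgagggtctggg
*Nppb* upstream: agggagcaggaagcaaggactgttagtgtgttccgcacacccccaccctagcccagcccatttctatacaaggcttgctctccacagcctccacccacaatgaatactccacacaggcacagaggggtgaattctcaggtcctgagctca
*Nppb* exon 1 site: caGGAATGcagctgataaatcagAGATAAc
Region at -22.0 kb: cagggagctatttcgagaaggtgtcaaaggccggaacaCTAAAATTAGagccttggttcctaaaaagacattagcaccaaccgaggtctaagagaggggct
Region at -19.8 kb: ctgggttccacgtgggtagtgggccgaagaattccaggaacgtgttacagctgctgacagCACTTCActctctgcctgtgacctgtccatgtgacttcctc
Region at -16.2 kb: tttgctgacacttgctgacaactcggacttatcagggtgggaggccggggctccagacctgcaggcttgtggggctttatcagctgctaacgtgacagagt

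Peak height is given as fold enrichment, the reads stacked at the summit plus 1, divided by the mean background of the library plus 1. That background was 2.68 and 2.98 reads in replicates 1 and 2, and the median fold enrichment of all peaks was 5.70 and 5.03. Whole reads could be recovered from 100% of the values within 0.05 reads, so each height has an exact Poisson 95% interval. The interval covers counting error only. A summit is the highest point of a peak that passed the caller's limit, and the interval does not correct for that choice. The values average over all cells of the hearts, so a higher share of cells with an open site and more cuts per open site cannot be told apart. Among marker genes, 6 of 8 cardiomyocyte, 3 of 4 endothelial and endocardial, 4 of 4 epicardial and 4 of 4 erythroid promoters held overlapping peaks of both replicates, against 63.5% of all protein-coding promoters. The same held for 0 of 4 liver, 1 of 4 neural and 1 of 4 epidermal promoters. *Nkx2-5*, *Tbx5* and *Pecam1* lacked it at the outermost annotated start and had it at another start.

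The *Nppb* promoter was open in both replicates. Its peak reached a fold enrichment of 18.7 in replicate 1 (95% interval 14.6 to 23.7, from 68 reads) and 17.6 in replicate 2 (13.7 to 22.2, from 69 reads). The mean was 18.2 ± 0.809 (SD, n = 2). The summits lay at 9 bp and -11 bp from the annotated start, and the peaks of 1772 bp and 1825 bp ran from upstream of exon 1 through exon 2 into exon 3. The accessible interval therefore covered most of the gene body. In replicate 1, 90.4% of all peaks were lower, and in replicate 2, 89.7%.

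The *Nppa* promoter reached 17.9 in replicate 1 (13.9 to 22.8, from 65 reads) and 14.8 in replicate 2 (11.3 to 19.1, from 58 reads), with a mean of 16.4 ± 2.19 (SD, n = 2). Its peaks of 1200 bp and 1318 bp ended within exon 2. The summit lay at -329 bp from the start, at the same base in both replicates. The difference of *Nppa* minus *Nppb* was -0.815 in replicate 1 and -2.77 in replicate 2. In each replicate the intervals of the 2 promoters overlapped, so their heights could not be ordered beyond counting error.

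A further, low accessible site lay at the end of *Nppa*, where the gene overlaps the antisense transcript *Gm13054*. Replicate 1 had a peak of 4.62 in intron 2, and replicate 2 a peak of 3.77 in exon 3. The peaks shared 25 bp and their summits lay outside the shared part.

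The *Nppa* summit carried matches to several cardiac motifs at the same time. AGATAA began at -279 bp from the *Nppa* start, the T-box letters at -250 bp on the minus strand, TNAAGTG at -241 bp and the CArG box at -407 bp, overlapping a GC box on the minus strand at -411 bp. Of 95480 replicate 1 peaks on the assembled chromosomes that overlapped a replicate 2 peak, 151 (0.158%) held the GATA, NKX2-5 and T-box letters within 150 bp of the summit, and 2 held a CArG box as well. The *Nppa* peak is among them, and this combination was counted after its motifs had been seen.

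At *Nppb*, GGAATG and AGATAA matches lay inside the annotated first exon, 7 bp and 28 bp past the GENCODE start. The 150 bases before that start held no match to the motifs searched. The RefSeq promoter table starts *Nppb* 112 bp further downstream, at 147985900, although the RefSeq gene itself begins at 147985786, close to the GENCODE start. From the start in the promoter table the same matches stood at -105 bp and -84 bp and the summits at -103 bp and -123 bp. A TATAAA, searched after the promoters had been read, began at -31 bp from the same start in that table and at -9 bp from the start of *Nppa*. It occurred in 12.4% of the 32851 RefSeq promoters over the 250 bases before the start. In the same window AGATAA occurred in 9.99%, GGAATG in 12.6%, TNAAGTG in 10.1% and GGTGTGA in 3.33%.

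The promoters were compared with those of all protein-coding genes, each taken as 1 kb on both sides of the outermost start. In all, 63.5% of genes had a shared region there, with a median mean fold enrichment of 24.3 over the 13928 genes. *Nppb* was higher than 36.3% of the promoters with a peak in replicate 1 and 34.1% in replicate 2, and *Nppa* higher than 34.1% and 28.6%. Both genes thus ranked in the lower part of open promoters, although high among all peaks. Their 250 bases before and 50 after the RefSeq start held 7 CpG dinucleotides at *Nppb* and 6 at *Nppa*, against a median of 7. Promoters with at most 7 CpG had a shared region at 21.5% of 5666 genes, with a median of 10.8, and those with more at 88.0% of 10856 genes, with a median of 26.4. Among the open promoters with at most 7 CpG, *Nppb* was higher than 71.6% and 70.3% and *Nppa* than 69.5% and 64.3%. Among those with more, *Nppb* was higher than 28.3% and 26.0% and *Nppa* than 26.2% and 20.7%. The limit was set at the count of *Nppb*, the higher of the pair. It is also the median over the RefSeq promoters, and no other limit was run.

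**Figure D1:**
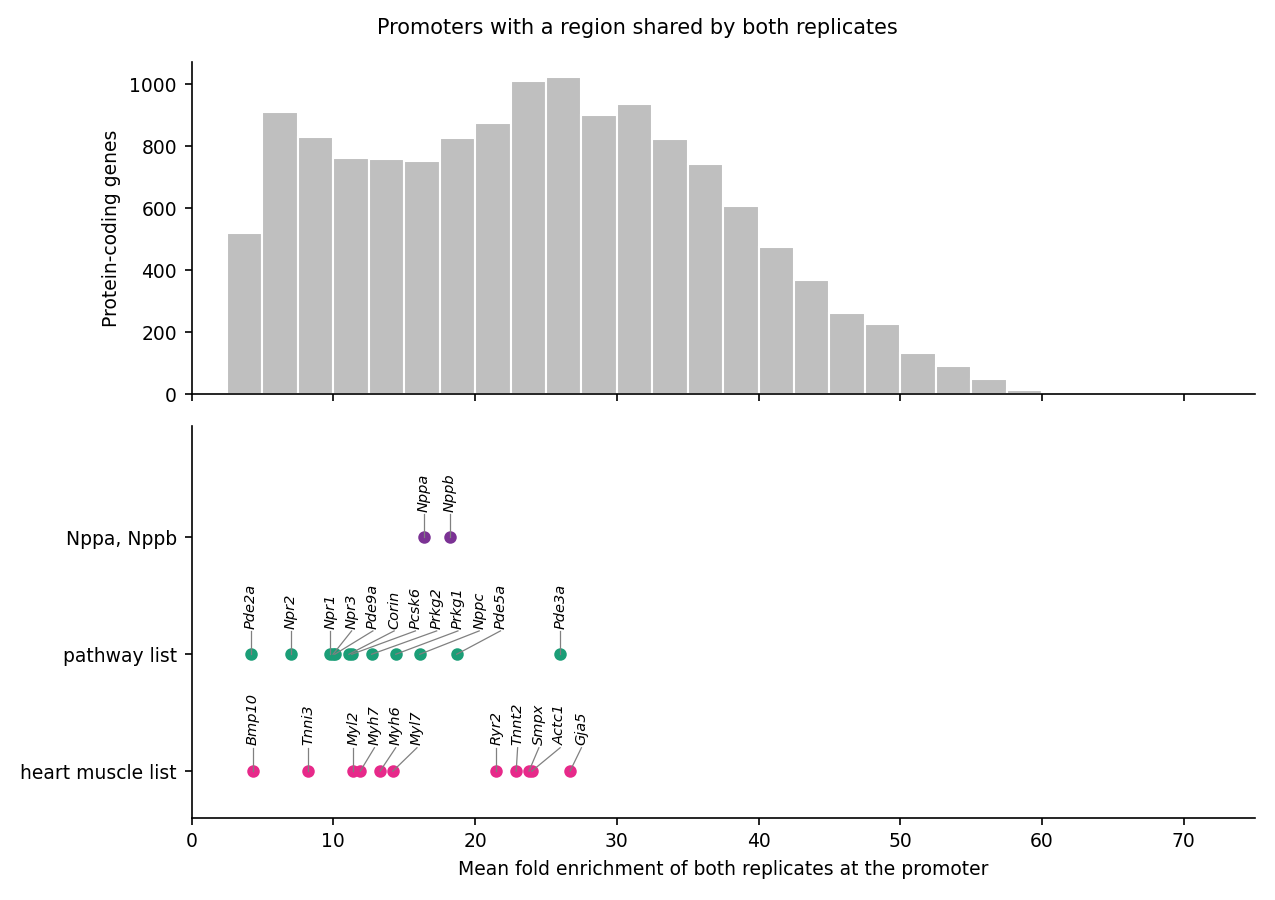
The upper panel counts protein-coding genes (vertical axis) by mean fold enrichment of both replicates at the promoter (horizontal axis), for the 13928 genes with a shared region. Points below mark *Nppa* at 16.4 and *Nppb* at 18.2, which lie below the median of 24.3, and the listed pathway and heart muscle genes that had a shared region.

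Upstream of *Nppb*, open chromatin formed a cluster of 6 shared regions between -32.1 kb and -16.2 kb. A shared region is the part of a peak covered by a peak of the other replicate. The cluster lies in a stretch of 56.9 kb, from the end of *2510039O18Rik* to the end of *Clcn6*, that holds no protein-coding gene but *Nppa* and *Nppb*. The stretch held 12 shared regions, of which 6 lay upstream of *Nppb* and 1 between the genes. The closest and, by mean, the highest region of the cluster was at -16.2 kb, with 17.9 in replicate 1 (13.9 to 22.8) and 19.4 in replicate 2 (15.3 to 24.2). These intervals overlapped those of both promoters in the same replicate.

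The region at -22.0 kb reached 17.9 (13.9 to 22.8) and 10.6 (7.65 to 14.2). It had the largest fall between replicates among the upstream regions, -0.76 on the log2 scale, and 4.79% of regions in the genome had a lower ratio. The region at -19.8 kb reached 15.2 and 12.8, and that at -25.4 kb 9.51 and 8.55. Which of the regions at -22.0 kb, -19.8 kb and -16.2 kb led was not separable in replicate 1, where all intervals overlapped. In replicate 2 the interval of -16.2 kb lay above that of -22.0 kb and overlapped that of -19.8 kb.

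The other upstream regions were low. The region at -32.1 kb had 4.07 and 5.78 and that at -22.8 kb 4.07 and 3.77. Peaks of 3.80 at -19.1 kb in replicate 1 and of 4.78 at -28.4 kb in replicate 2 had no counterpart. Between the last upstream region and the *Nppb* promoter peak, 15.3 kb held no peak in either replicate.

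**Figure D2:**
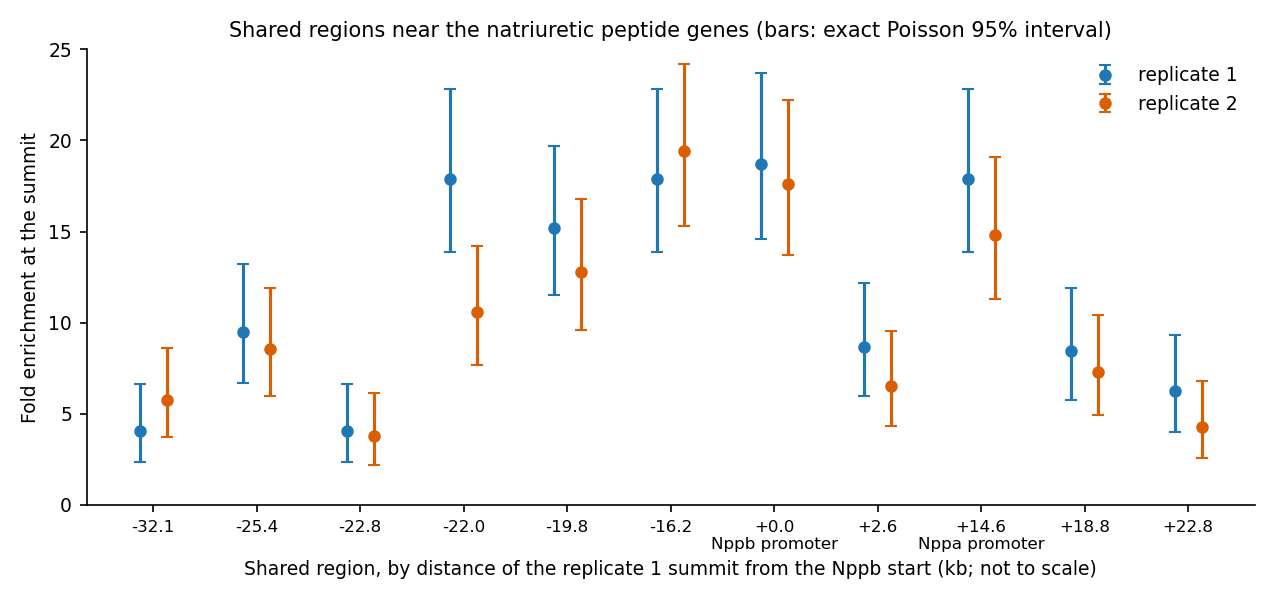
Fold enrichment at the summit (vertical axis) of the 11 shared regions from -32.1 kb to 22.8 kb whose summits lay inside the shared part in both replicates, in order along the chromosome (horizontal axis, not to scale). Points are the replicates and bars their exact Poisson 95% intervals. The intervals of the replicates overlap at each region, and the regions at -22.0, -19.8 and -16.2 kb are the highest apart from the promoters.

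The interval between the genes was mostly closed. Its only shared region began shortly past the end of *Nppb*, with its replicate 1 summit at 2.6 kb from the *Nppb* start, and reached 8.69 in replicate 1 and 6.54 in replicate 2. The summits were 393 bp apart. A replicate 1 peak of 4.35 at 1.61 kb had no counterpart. From the shared region to the *Nppa* promoter peak, 10.9 kb held no peak in either replicate.

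Past *Nppa*, a broad and moderate region overlapped the first part of *Gm13054* and the end of *Clcn6*, an endosomal chloride transporter gene on the minus strand. It reached 8.42 in replicate 1, with a summit in *Clcn6* exon 23, and 7.29 in replicate 2, with a summit in *Gm13054* intron 1. A separate replicate 2 peak of 3.02 in *Gm13054* intron 1 fell inside the replicate 1 peak. The next region, in *Clcn6* intron 22 at 22.8 kb, had 6.25 and 4.27. The longest stretch without a peak in the window, 29.0 kb, followed inside *Clcn6*.

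The motif content differed among the upstream regions. The -22.0 kb region held a MEF2 site near its summits in both replicates, the only such match among the 32 window regions whose summits lay inside the shared part in both. Of all shared peaks, 5.10% and 5.05% held a MEF2 site in replicates 1 and 2. TNAAGTG was found in both replicates at -32.1 kb, -22.8 kb and -19.8 kb and at the *Nppa* promoter, and in 16.5% and 16.4% of all shared peaks. GGAATG was found in both at -22.8 kb, -22.0 kb and the *Nppb* promoter, at 2 other regions of the window, and in 20.6% and 20.5% of all shared peaks. These matches are thus common at open sites. The highest region, at -16.2 kb, held none of the searched cardiac letters. It did hold the shorter GATAA on the minus strand at 2 places, a search added after its sequence had been read. Of all shared replicate 1 peaks, 2.27% held at least 2 GATAA within 50 bp of the summit.

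A CTCF core, the central letters bound by the insulator protein CTCF, was found in both replicates at 4 of the 32 regions. On the plus strand it began at -67161 bp, in *Plod1* intron 14, and at -32071 bp and -25437 bp from the *Nppb* start. On the minus strand it began at 22791 bp, in *Clcn6* intron 22. The innermost matches, at -25437 bp and 22791 bp, thus stood on either side of the pair on opposite strands. At the summits, 11.1% of the 36 shared replicate 1 peaks of the window and 13.5% of the 37 of replicate 2 held a core, against 3.07% and 3.11% of all shared peaks. CTCF binding was not measured in these libraries, and the CTCF peaks that the paper reprocessed from newborn hearts were not compared.

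AGATAA was not more frequent in the window than elsewhere. It lay within 150 bp of the summit in 8 of 36 replicate 1 peaks (22.2%) and 6 of 37 replicate 2 peaks (16.2%), against 22.6% and 22.4% of all shared peaks. The T-box letters occurred in 4 of 36 (11.1%) and 3 of 37 (8.11%), against 4.62% and 4.70%. With so few peaks, these shares are descriptions.

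**Figure D3:**
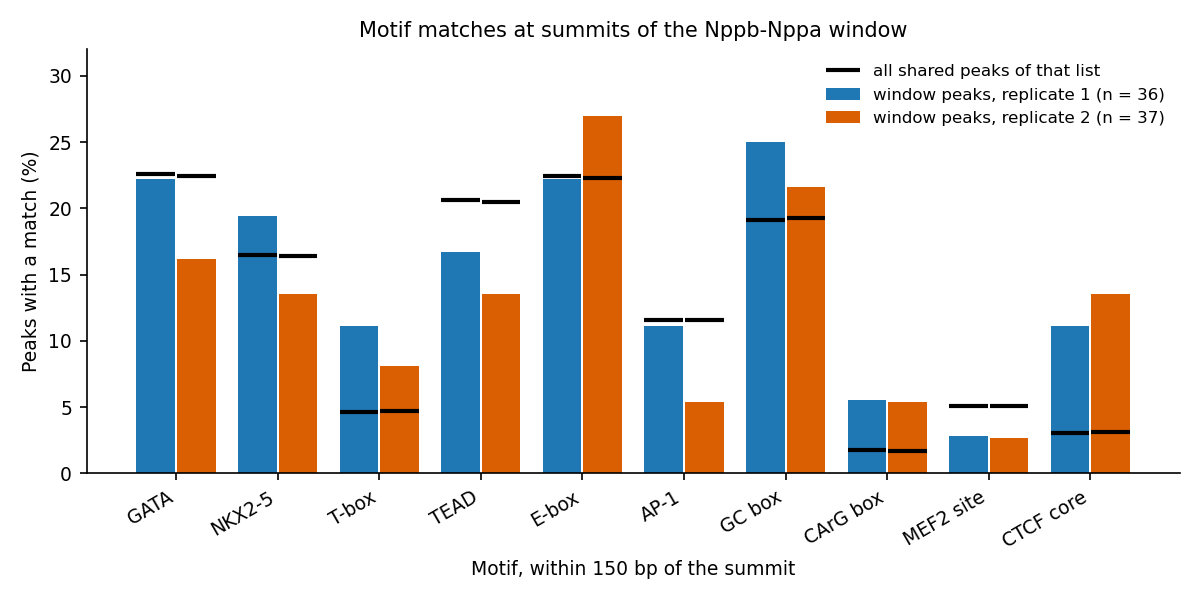
Share of shared peaks with a motif match within 150 bp of the summit (vertical axis, percent) for each motif (horizontal axis). Bars are the peaks of the window in replicate 1 (n = 36) and replicate 2 (n = 37), and black lines all shared peaks of the same list. The CTCF core stands at 11.1% and 13.5%, against 3.07% and 3.11%, and the GATA bars lie at or below their lines.

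Over the window as a whole, 36 of 46 peaks of replicate 1 (78.3%) overlapped a peak of replicate 2, and 37 of 44 of replicate 2 (84.1%) overlapped one of replicate 1. Over the genome the shares were 81.0% and 82.8%, so the window stood near the background. The 10 unmatched peaks of replicate 1 ranged from 3.26 to 4.35 and the 7 of replicate 2 from 2.77 to 4.78. The 40 shared regions ranged in mean height from 3.65 to 52.2, with a median of 8.93 against 6.29 over all 98924 regions. In the 32 with both summits inside, the replicates' intervals overlapped in each and 22 were lower in replicate 2. Requiring both summits inside favours regions where the replicates match, and these counts were not made over the genome. The median log2 ratio of replicate 2 to replicate 1 in the 32 was -0.12, against -0.11 over the genome. Across these regions, which share both libraries and are not independent, Spearman's rho between replicates was 0.93. Over all 40 regions rho was 0.67 and the intervals did not overlap in 4, each a region with a summit outside the shared part in at least 1 replicate.

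The number of 40 regions was compared with windows of the same flanks around every protein-coding gene, which had a median of 13. It exceeded 97.9% of them. The window also holds 9 protein-coding genes, more than 74.4% of the windows, whose median was 5. Counting only regions away from promoters, a choice made after the data were seen, the window had 32 against a median of 9 and exceeded 97.1%. Windows of neighbouring genes share peaks, and their lengths differ with the gene. Per 100 kb, a choice also added later, the window had 18.5 regions against a median of 5.41.

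**Figure D4:**
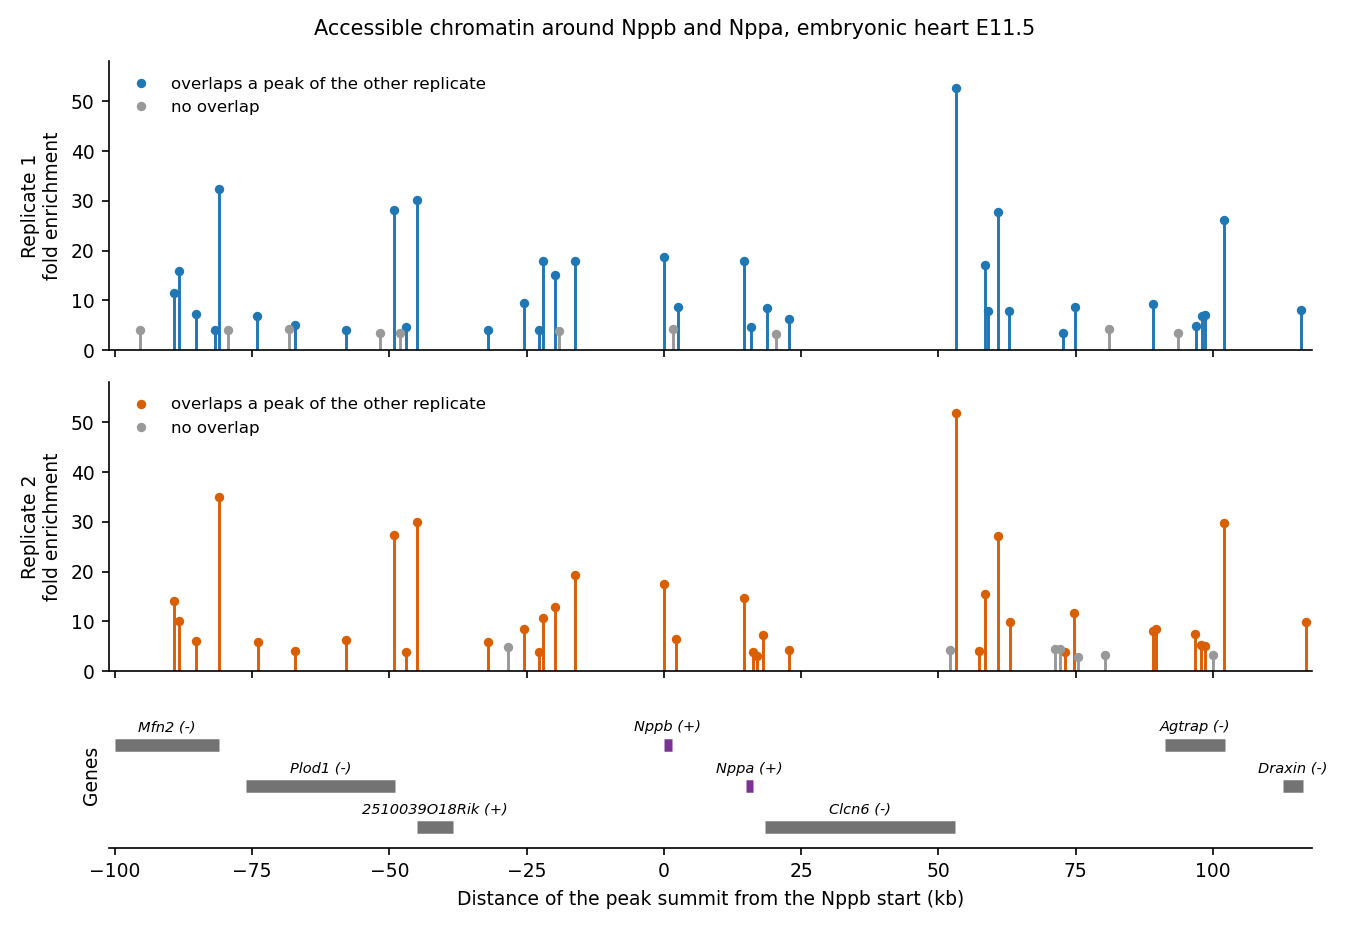
Fold enrichment of each peak (vertical axes) at the distance of its summit from the *Nppb* start (horizontal axis, kb), for replicate 1 (top) and replicate 2 (middle). Coloured peaks overlap a peak of the other replicate and gray ones do not, and bars at the bottom are the protein-coding genes described in the text with their strand, ended at the window's limits. The upstream cluster from -32.1 kb to -16.2 kb and both promoters stand between 2 groups of higher promoters, led by 52.7 and 51.8 at *Clcn6*.

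The promoters of the neighbouring protein-coding genes named here had higher values than those of the pair in both replicates, except that of *Draxin*. The *Clcn6* promoter had 52.7 and 51.8, the highest peak of the window. *Mfn2*, which encodes a mitochondrial fusion protein, had 32.3 and 34.9 at its promoter. The promoter of *2510039O18Rik* had 30.2 and 29.9, and that of *Plod1*, a lysyl hydroxylase gene of collagen, had 28.2 and 27.4. *Agtrap*, whose product binds the angiotensin receptor, had 26.1 and 29.7. The promoter of *Draxin*, an axon guidance gene that begins outside the window, had 15.2 and 13.6.

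Regions also lay within the neighbouring genes. Of the *Mfn2* introns, intron 4 held regions of 11.4 and 14.1 and of 16.0 and 10.1, and intron 3 had 7.33 and 6.03. The intronic regions with summits inside in *Plod1* ranged from 4.02 to 6.79 over both replicates, and those of *Agtrap* from 4.89 to 7.54. An intergenic region between *Plod1* and *2510039O18Rik* had 4.62 and 3.77. The region at 74.9 kb, which is intergenic in GENCODE but lies inside *Gm13201* in RefSeq, had 8.69 and 11.6. The antisense gene *Gm13201*, as GENCODE places it, had 9.24 and 8.04, and *Draxin* exon 7 had 8.15 and 9.80.

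Other genes of the natriuretic peptide pathway had open promoters at 12 of 15, against 63.5% of all protein-coding genes. The remaining *Furin*, *Mme* and *Ide* had a shared region at another annotated start. This brought the count to 15 of 15, against 67.6% of all genes by that rule. Genes with more annotated starts have more chances under it, and the share was not matched for the number of starts. Mean heights ranged from 4.17 at *Pde2a* to 26.0 at *Pde3a*, with a median of 11.2.

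Among the ligands, *Nppc*, the gene of C-type natriuretic peptide, had 17.7 and 14.6. Among the receptors, *Npr1*, which binds both cardiac peptides, had 9.78 and 9.80. *Npr2*, the receptor of C-type peptide, had 8.42 and 5.53. *Npr3*, which clears the peptides, had 11.4 and 8.55. These values were below those of *Nppa* and *Nppb* in both replicates, and their counting intervals were not compared.

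Of the processing proteases, *Corin*, which cleaves the *Nppa* precursor, had 10.3 and 11.8. *Pcsk6*, which activates corin, had 12.2 and 10.3. *Furin*, which cleaves the *Nppb* precursor, had 19.8 and 20.6 at the other start. The degrading enzymes *Mme* (neprilysin) and *Ide* (insulin-degrading enzyme) had 20.1 and 24.4, and 19.3 and 16.8, at other starts.

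Downstream of cyclic GMP, the kinase gene *Prkg1* had 15.8 and 13.1 and *Prkg2* had 13.3 and 12.1. Of the phosphodiesterases that break cyclic nucleotides down, *Pde3a* had 26.1 and 25.9 and *Pde5a* 19.0 and 18.4. *Pde9a* had 10.6 and 9.55. *Pde2a* had 4.07 and 4.27 at the outermost start and 14.9 and 14.1 at another start.

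Of 12 heart muscle genes, 11 had a shared region at the promoter, against 63.5% of all protein-coding genes, with a median of 14.2 and a range from 4.32 to 26.7. *Nppa* and *Nppb* lay inside this range. *Gja5*, a connexin gene of atria and trabeculae, had 26.3 and 27.2, and *Actc1* (cardiac actin) had 25.8 and 22.1. The atrial light chain gene *Myl7* had 16.6 and 11.8 and the myosin heavy chain gene *Myh6* had 13.9 and 12.8. *Bmp10*, a growth factor gene of trabecular myocardium, had 4.62 and 4.02. *Sln* (sarcolipin), an atrial gene at later stages, had no peak in either replicate at its start.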

How the data were processed

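ATAC-seq libraries of wildtype E11.5 mouse hearts (2 replicates, 1 group) were sequenced as single-end 50 bp reads. The submitters' processing notes name Trim Galore 0.6.6, cutadapt, Bowtie2 2.4.2, SAMtools 1.12 and GRCm38/mm10. Per the paper's methods, duplicates and poorly mapped reads were removed and MACS2 called peaks in each replicate without a local background or control. In the deposited lists the authors give a fold enrichment (a ratio), −log10 p and −log10 q values at the summit, a score (the −log10 q scaled) and the summit offset. The largest p-values, 0.000476 and 0.00104, are below the limit stated in the methods, and the lists were used as deposited. Read totals are not part of the lists, so depth is known only as the background of 2.68 and 2.98 reads.

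Shared regions were made with bedtools 2.31.1 (at least 1 bp), trimmed and merged where they touch. Genes came from GENCODE M21, promoters from RefSeq (GRCm38.p6, both members matched), and sequence from GRCm38. Motifs were searched on both strands. Named genes are the pair, annotated genes with a window peak in the body or promoter, and lists of 15 pathway, 12 heart muscle and 7 groups of marker genes. 1 gene of the window is not reported here. Members, lists and motifs were chosen with earlier results of these data known. No test was run, since a single group of 2 cannot be compared. Nothing shows whether the replicates came from separate litters, so their spread may be partly technical. The code ran in Python 3.11.15 with pandas 2.3.3, NumPy 2.4.6, Matplotlib 3.10.9 and SciPy 1.17.1 and was tested on simulated data.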

Additional observations from a re-analysis of the deposited data

How the results depend on the processing

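The promoter heights of *Nppa* and *Nppb* were the same with promoters of 500 bp or 2.5 kb on each side and with only summits inside the promoter. With either replicate alone, *Nppa* ranged from 14.8 to 17.9, *Nppb* from 17.6 to 18.7 and their difference from -2.77 to -0.815. The window held 44 to 46 regions with either replicate alone, 28 where each peak had to cover 50% of the other and 39 with p at most 0.00001. It held 25 with q at most 1e-10, 22 with flanks of 50 kb and 62 with flanks of 200 kb. Its percentile among gene windows was 95.4 with the reciprocal overlap, 98.3 with the p limit, 98.9 with the q limit, 99.0 in base pairs and 97.9 to 98.1 with either replicate alone. It was 99.1 per 100 kb and 97.1 away from promoters, both added after the data were seen. Pathway promoters with a shared region numbered 10 to 15 over the alternatives run. The share of all genes is given only for the main rule and for any annotated start, so the other counts have no background. AGATAA lay in 1 of the 36 peaks (2.78%) within 50 bp of the summit, against 9575 of all 95480 shared peaks, and in 9 (25.0%) within 250 bp, against 30.4%. The letters GATAA, added later, lay in 10 (27.8%), against 40.4%. No paired analysis was possible because there is a single group. Counting error limits each height: at 14 reads the interval was 2.35 to 6.65. Peaks in repeated sequence can be lost with poorly mapped reads, and 29 of the 38 regions long enough to test held only 32-base words that occur once in the genome.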
